A study of Mus musculus with 4 samples.

Results

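Sox8, Sox9 and Sox10 form the SoxE group of SOX transcription factors. They were taken by name, as 3 of the 21887 genes whose spans were counted, with the promoter and distal regions around them, the co-accessibility links of their promoter regions and the motif columns that carry their names. Open chromatin was profiled in single nuclei by ATAC-seq, in which the Tn5 transposase tags open DNA. Nuclei were told apart by barcode pairs, which different nuclei can share. The mice were wild type and of the outbred CD1 strain, and the labels name no transgene and no treatment. Mammary cells of E18 fetuses (embryonic day 18) and of 8-week-old adults had been sorted as EpCAM+ and Lin-, a gate that all libraries share, and there were 2 biological replicates per stage. The labels do not say how many animals a replicate pooled, so the p-values below measure the spread between these 4 libraries, or between sums of parts of them, only.

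SoxE proteins bend DNA through an HMG box and bind short AT-rich SOX cores, alone or as dimers on a pair of cores in inverted order. Sox9 is best known from cartilage and testis, and in the mammary gland it has been studied in luminal progenitors. Sox10 is a hallmark of neural crest, Schwann cells and melanocytes and is also expressed in fetal and adult mammary epithelium. Sox8 is often expressed beside one of the other two and can take over part of their work.

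The 4 libraries held between 882 and 2804 nuclei, 7846 in all, and between 6028168 and 19304830 reads in those nuclei. Median depth per nucleus ran from 4420 to 7488 reads, both fetal libraries lay above both adult ones, and no pair of libraries shared a barcode. The authors placed the nuclei in 14 classes without names, and nearly every class came from 1 stage. From marker genes, adult classes 1 and 8 and fetal class 4 were basal-like (9, 9 and 7 of 10 basal markers raised), and adult classes 3 and 7 and fetal class 9 were luminal progenitor-like (6, 6 and 4 of 7 markers raised). Classes 2 and 11 were mature luminal-like, with 8 and 6 of 8 markers raised, and class 6 was stromal-like, with 7 of 7. Classes 5, 12 and 13 (fetal) and 10 and 14 (adult) are given by number. Of these, classes 5 and 10 had 4 of 7 luminal progenitor markers raised, as many as class 9, and class 10 also 4 of 8 mature luminal ones. Class 14 had 6 of 8 mature luminal and 6 of 10 basal markers raised, and class 12 had 4 of 10 basal ones. The lineage groups below leave these numbered classes out unless said otherwise, so they do not hold every nucleus with such markers. No basal marker was among the 10 leading genes of class 4, so its name rests on the marker count, and Sox10 itself was among the 10 leading genes of class 9. Classes were made by the authors from the accessibility of these same nuclei, so differences between classes are described and not tested.

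The 3 genes lie on separate chromosomes (build mm10, with gene models from the RefSeq table of GRCm38.p6). Sox8 (gene ID 20681) is on the minus strand of chromosome 17 from 25565893 to 25570686, Sox9 (20682) on the plus strand of chromosome 11 from 112782210 to 112787757, and Sox10 (20665) on the minus strand of chromosome 15 from 79154913 to 79164490. The authors' promoter regions of 1000 bases overlap each start, at 25570176 to 25571175 for Sox8, 112781556 to 112782555 for Sox9 and 79164391 to 79165390 for Sox10. The gene span counted here is the gene with 2000 bases on either side. That of Sox8 overlaps part of the lncRNA gene Cerox1, that of Sox9 holds the distal region at 5.234 kb and that of Sox10 the one at 2.147 kb and part of the one at 11.35 kb, all described below with their distance from the gene start, so reads there count for both.

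The RefSeq promoter table held an entry for Sox8 and for 12 of the 16 other Sox genes examined, and none for Sox9 or Sox10. Shown here are the 250 bases before the start of Sox8 (chr17:25570687-25570936, minus strand), because the promoter region counted between the stages covers them, and 250 bases before an alternative start of Sox6 (chr7:115824711-115824960, minus strand), because Sox6 is a classical partner of SoxE proteins and this stretch holds a pair of inverted SOX cores. Both are written 5′ to 3′. In Sox8 the capitals mark the 126 bases that also lie in Cerox1, which runs from 25570811 to 25575043. In Sox6 the capitals mark the 17 bases of the pair, AACAAT and ATTGTT separated by 5 bases.
Sox8: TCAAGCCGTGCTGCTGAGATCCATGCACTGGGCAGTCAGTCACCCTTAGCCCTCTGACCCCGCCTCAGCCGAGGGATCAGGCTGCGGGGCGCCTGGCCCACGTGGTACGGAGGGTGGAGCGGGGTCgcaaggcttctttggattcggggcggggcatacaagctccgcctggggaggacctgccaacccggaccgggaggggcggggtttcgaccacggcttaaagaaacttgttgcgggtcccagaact
Sox6: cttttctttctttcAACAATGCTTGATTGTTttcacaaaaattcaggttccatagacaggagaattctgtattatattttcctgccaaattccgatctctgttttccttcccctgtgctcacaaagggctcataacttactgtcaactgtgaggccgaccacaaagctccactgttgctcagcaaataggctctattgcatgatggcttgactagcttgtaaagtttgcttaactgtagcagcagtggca
The Sox8 stretch was 65.6% G and C with 18 CpG dinucleotides, and that of Sox6 41.6% with 2. Searched on both strands in windows of 300 bases (250 before and 50 after a start), the letters ACAATG were found in 12.6% of 32851 promoter windows, ACAAAG in 18.7% and the inverted pair with 3 to 5 bases between the cores in 5 windows (0.0152%). The Sox8 window held none of the 3. Among the 17 windows of other Sox genes, 3 held ACAATG (a match that overlaps the pair where both occur), 7 held ACAAAG and 1 held the pair. Sox6 has 6 of these windows, which gave 2 of the 3 with ACAATG, 5 of the 7 with ACAAAG and the pair. The Sox6 stretch lies in an authors' distal region at 115824548 to 115825547 that stood at 36.4 and 30.4 CPM in fetal replicates 1 and 2 and at 8.57 and 8.64 CPM in adult replicates 1 and 2. CPM in this and the other stage comparisons is scaled to the reads in all tested features of the same kind, with TMM factors, while class CPM is scaled to all reads of the nuclei of a class. Both fetal libraries were above both adult ones, with a log2 fold change of fetal over adult of 1.94 (SE 0.27, with 3.2e-07 as the adjusted p in edgeR). The Sox6 start was singled out after the motif search had been run, and a match of letters is not a binding site.

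Sox10 was the most class-restricted of the 3 genes, Sox9 was open in every class, and Sox8 was low in the mature luminal-like classes. As a level over the whole series, in CPM per kb of span (scaled to all reads of the nuclei), Sox9 stood at 7.49, Sox10 at 3.61 and Sox8 at 2.15, where the median of all genes was 0.668. These levels lie above those of 98.9%, 93.2% and 83.7% of genes. The spans of Sox9, Sox10 and Sox8 measure 9.55, 13.6 and 8.79 kb with flanks of fixed length, so the ranks also depend on gene length. By the share of columns with an authors' gene accessibility score above 0, described below, the order differed. Sox10 then lay above 94.5%, Sox9 above 70.5% and Sox8 above 59.2% of 11327 genes.

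In adult luminal progenitor-like class 7 the Sox10 span was at 5.75 and 6.35 CPM per kb in replicates 1 and 2, a mean of 6.05 ± 0.419 (SD, n = 2). Fetal luminal progenitor-like class 9 stood at 5.69 and 6.0, and fetal classes 5 and 12 had means of 5.56 ± 0.502 and 5.54 ± 0.764 (SD, n = 2). Then came adult class 3 at 4.76 ± 0.363 and adult basal-like class 1 at 4.55 ± 0.398 (SD, n = 2). With the flanks counted, these 6 classes overlapped their neighbours in the order, and no fetal class stood above all adult ones. A gap to the next class followed, with fetal basal-like class 4 at 3.56 and 3.65. Class 13 (3.28 ± 2.51), adult basal-like class 8 (2.58 ± 0.726) and class 10 (2.35 ± 0.864; all SD, n = 2) followed with overlap. A second gap separated these from the classes in which Sox10 was close to shut. Class 14 stood at 0.595 ± 0.0475, mature luminal-like classes 11 and 2 at 0.502 ± 0.321 and 0.490 ± 0.106, and stromal-like class 6 at 0.523 ± 0.740 in adult and 0.420 ± 0.594 in fetal libraries (SD, n = 2). In class 6 no read fell in the span in fetal replicate 1 or adult replicate 2, which allows levels of up to 1.53 and 0.382 at 3 reads. The order at the top depends on the flanks. Counted without them, class 7 stood apart at 6.46 and 6.62, above class 3 at 4.83 to 5.56 and class 9 at 4.38 to 4.97. Classes 5 and 12 were then lower, at 3.45 to 4.06 and 3.35 to 3.48.

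Within the adult libraries the Sox10 level of class 7 was 10.2 and 15.3 times that of class 2 in replicates 1 and 2. The same ratio was 1.25 and 1.41 for Sox9 and 2.29 and 3.63 for Sox8, so in both replicates Sox10 separated the 2 luminal classes by the largest factor of the 3 genes. Thinning each nucleus to 2000 reads left a read in the Sox10 span in 11.0% ± 0.912 of class 7 nuclei and in 1.00% ± 0.377 of class 2 nuclei (SD, n = 2), against 17.2% and 1.97% before thinning. In the stromal-like nuclei of the adult libraries the thinned share, taken as background, was 2.38% in replicate 1 and 0% in replicate 2 (mean 1.19% ± 1.69, SD, n = 2). Class 2 was at 1.27% and 0.734% in the same replicates, below that background in the first and above it in the second. Median depths before thinning were 4236.5 reads in class 7, 4904.5 in class 2 and 5330 in class 6, and every nucleus had at least 2000 reads, so none was left out. For Sox9 the thinned shares in classes 7 and 2 were 12.5% and 10.3%, and for Sox8 2.46% and 0.948%.

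Markers of Schwann cells and melanocytes, other cell types known for Sox10, were measured beside it. Of the 9 such markers none was raised in classes 1, 4, 7 and 9, where Sox10 was open. Up to 3 were raised in each of the other classes, among them Foxd3 and Tyr in class 3 and Dct in class 5, where Sox10 was also open. Their summed level ran from 288.9 CPM in class 4 to 574.2 CPM in class 2, where Mbp and S100b were the raised ones and Sox10 was close to shut. None of the 9 was without reads in any class, the lowest having 1 read in class 13, and their part in the Sox10 levels was not tested.

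Sox9 varied less. Class 7 had the highest mean, at 9.89 and 10.6 CPM per kb (10.2 ± 0.486, SD, n = 2), but it did not stand apart from all other classes. Class 14 was at 11.2 and 4.47 in adult replicates 1 and 2, and class 10 reached 9.89 in adult replicate 2. Both are small classes. The value of 11.2 rests on 28 reads in 25 nuclei (95% interval of the count 7.43 to 16.2), and that of class 10 on 64 reads in 61 nuclei. Median depth was 8031 reads in class 14 and 9090 in class 10, against 4236.5 in class 7. Fetal class 9 followed in the order of means at 8.57 ± 0.367, and from there 12 further class levels down to class 4, mature luminal-like class 2 among them at 7.70 ± 0.271, overlapped from neighbour to neighbour (SD, n = 2). The basal-like classes were among the lower ones, with 6.96 ± 0.745 in class 1, 5.65 ± 0.0191 in class 8 and 4.69 ± 1.45 in fetal class 4 (SD, n = 2). Adult stromal-like nuclei were lowest at 2.81 ± 0.122, while fetal stromal-like nuclei stood at 6.88 ± 2.55 (SD, n = 2).

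Sox8 was the least precisely measured. Class 12 had the highest mean, 5.13 ± 2.46, but its replicates were at 6.86 and 3.39, and class 1 followed at 5.86 and 2.91. Adult stromal-like nuclei, which had the lowest Sox9 level, followed class 1 for Sox8 at 3.46 ± 0.439 and had the highest mean at its promoter region, 28.7 ± 6.31 class CPM (SD, n = 2). That mean overlapped class 12, at 33.4 and 11.0 in fetal replicates 1 and 2. In these stromal-like nuclei 14 of 14 and 14 of 16 span reads in adult replicates 1 and 2 lay in the promoter region. Part of that region also lies in Cerox1, so the reads are not assigned to Sox8 alone. No gap separated neighbours in span level from class 12 down to class 2, which was at 0.707 ± 0.125 (SD, n = 2). No Sox8 read was found in the 23 and 33 fetal stromal-like nuclei, which allows levels of up to 2.36 and 0.972 at 3 reads, so in replicate 1 a level like that of class 3 or 7 was not detectable at this depth.

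At the promoter regions the order of the classes differed from that of the spans. For Sox10, in class CPM, class 9 had the highest mean at 15.8 ± 4.65, followed by class 5 at 14.6 ± 0.912, classes 12 and 1 at 12.2 ± 2.97 and 12.2 ± 2.65, class 3 at 10.3 ± 4.45 and class 7 at 8.96 ± 3.43 (SD, n = 2). For Sox9, class 12 was at 39.2 ± 11.96 and class 7 at 35.2 ± 4.46 (SD, n = 2), with overlap.

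**Figure D1:**
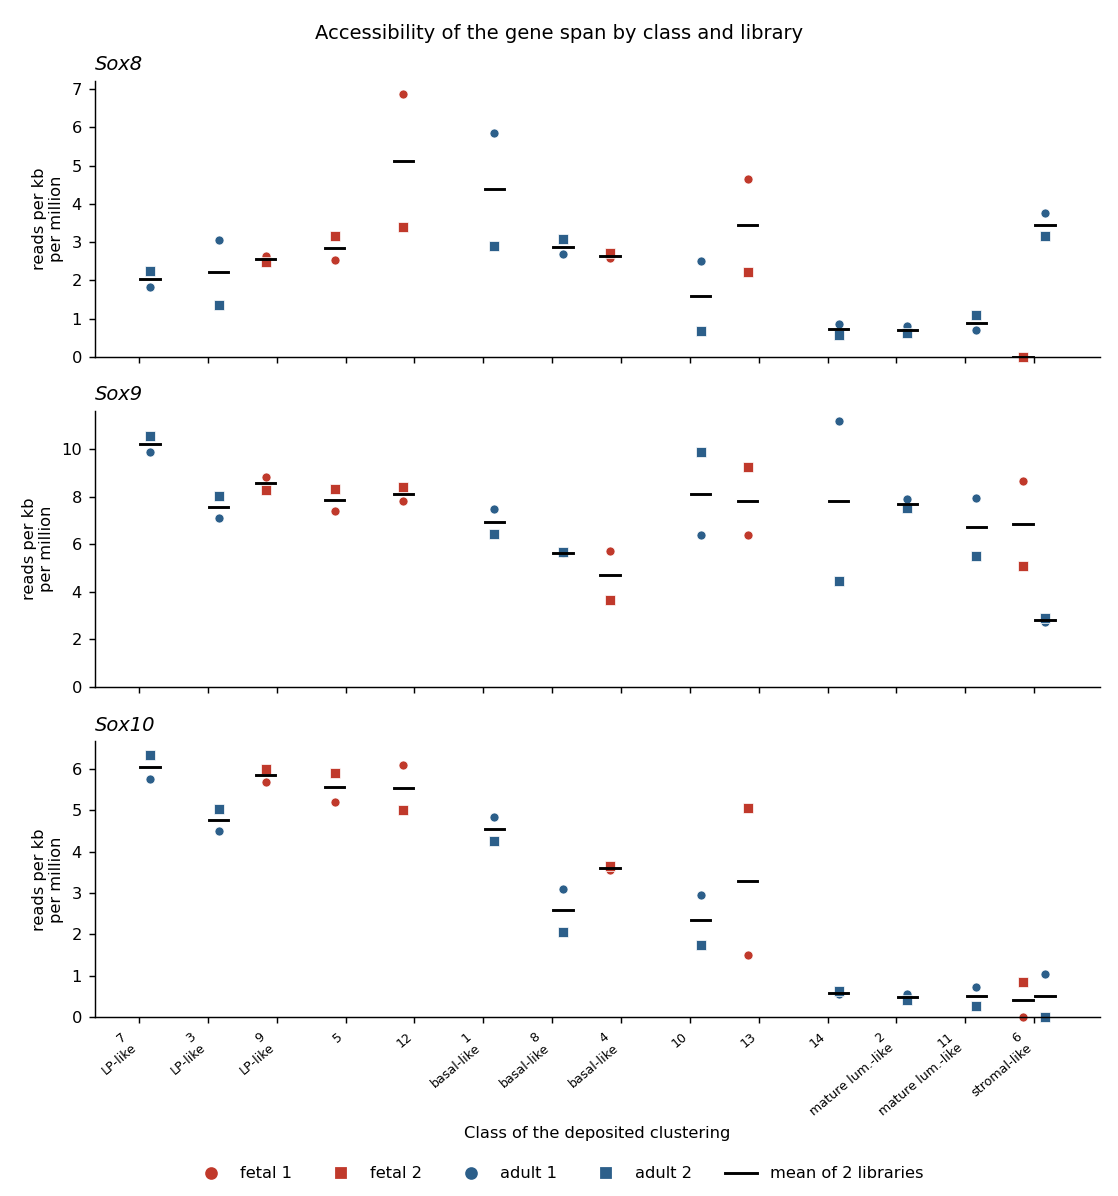
Accessibility of the Sox8, Sox9 and Sox10 spans (CPM per kb of span, y axis) in each class of the deposited clustering (x axis), with 1 point per library and a line at the mean of 2 libraries (n = 2). Sox10 falls to 0.490 in mature luminal-like class 2 from 6.05 in class 7, while Sox9 stands at 7.70 and 10.2 in the same classes.

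The genes whose spans followed each member most closely over 26 class and library sums are given as a description, since the sums share libraries and depth. Sox10 was followed most closely by Gm4894, a predicted gene (Pearson r = 0.921), Celsr2, a cadherin of planar cell polarity (0.897), Gmds, an enzyme of GDP-fucose synthesis (0.893), Col9a1, a chain of cartilage collagen IX (0.877), and Smox, spermine oxidase (0.875). Sox8 was followed by Itpkb, an inositol phosphate kinase (0.861), Ksr1, a scaffold of MAP kinase signalling (0.856), Acot7, an acyl-CoA thioesterase (0.846), Inka1, an inhibitor of PAK kinase (0.842), and Vsir, a checkpoint receptor (0.835). For Sox9 the 5 genes were Plcg2, a phospholipase (0.839), Niban3 (0.836), Acadl, an enzyme of fatty acid oxidation (0.834), Marveld3, a tight junction protein (0.830), and Dnmt1, the maintenance DNA methyltransferase (0.823). Among themselves the members were less alike, with r = 0.552 for Sox9 and Sox10, 0.506 for Sox8 and Sox10 and -0.156 for Sox8 and Sox9. Between 6.84% and 9.09% of the genes compared had r of at least 0.5 with a member.

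Between the stages, Sox8 and Sox10 were more open in the fetal libraries and Sox9 did not pass the test. The Sox10 span was at 87.0 and 95.3 CPM in fetal replicates 1 and 2 and at 49.0 and 45.2 CPM in adult replicates 1 and 2. Every fetal value was above every adult one, with a log2 fold change of 0.96 (SE 0.12, with 1.46e-04 as the adjusted p in edgeR). The Sox8 span stood at 35.0 and 32.0 CPM in fetal and 21.5 and 19.0 CPM in adult replicates 1 and 2, also without overlap, and the log2 fold change was 0.72 (SE 0.16, with 0.00643 as the adjusted p in edgeR). Sox9 was at 97.1 and 95 CPM in fetal and 97.1 and 93.2 CPM in adult replicates. The stages overlapped, with a log2 fold change of 0.01 (SE 0.11, with 0.949 as the adjusted p in edgeR). So 2 of the 3 spans were called higher in fetal libraries and none higher in adult ones, where 11.3% and 10.9% of the 18808 tested spans were called in those directions.

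The mature luminal-like classes 2 and 11, in which Sox8 and Sox10 were low, made up 0.34% and 0.413% of the fetal nuclei and 40.6% and 38.3% of the adult nuclei in replicates 1 and 2. In libraries summed over nuclei, a change in the mix of classes and a change within classes cannot be told apart. With the nuclei of these 2 classes left out, an alternative chosen after the data were seen, both span calls ended. Sox10 was then at a log2 fold change of 0.26 (SE 0.12, with 0.184 as the adjusted p in edgeR), Sox8 at 0.22 (SE 0.17, adjusted p = 0.438) and Sox9 at -0.04 (SE 0.12, adjusted p = 0.871). Of the 18420 spans tested without these nuclei, 6.68% were called higher in fetal and 7.03% higher in adult libraries. Classes 5 and 12 stayed in that fit. They held 33.2% and 34.5% of all nuclei in fetal replicates 1 and 2 and 0% in both adult ones. The mix of classes thus still differed between the stages.

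At the promoter regions, Sox10 stood at 57.6 and 48.8 CPM in fetal and 20.9 and 18.8 CPM in adult replicates 1 and 2, a log2 fold change of 1.41 (SE 0.24, with 5.73e-06 as the adjusted p in edgeR). The stages did not overlap, and this difference was still called without classes 2 and 11, at 0.72 (edgeR adjusted p = 0.0344). Classes 5 and 12, which held fetal nuclei only, stayed in that fit. The Sox8 promoter region, at 61.0 and 53.3 CPM against 41.2 and 31.8 CPM, had a log2 fold change of 0.64 (SE 0.21, with 0.0188 as the adjusted p in edgeR). That call ended with DESeq2 (adjusted p = 0.0588), in edgeR without fetal replicate 1 (0.57, adjusted p = 0.089) or adult replicate 2 (0.45, adjusted p = 0.242), and without classes 2 and 11 (0.20, adjusted p = 0.605). Sox9, at 121 and 114 against 105 and 105 CPM, did not overlap between the stages and was not called, at 0.16 (SE 0.14, with 0.435 as the adjusted p in edgeR). Of all 18570 promoter regions tested, 10.5% were called higher in fetal and 11.0% higher in adult libraries, and 6.62% and 7.14% of 17679 without classes 2 and 11. A second promoter region lies at -6.729 kb from the Sox8 start (negative is upstream), with Lmf1 as the nearest gene, from 25576915 to 25577914. It was at 104 and 86.8 CPM in fetal and 30.0 and 29.2 CPM in adult replicates 1 and 2, a log2 fold change of 1.67 (SE 0.19, with 1.67e-10 as the adjusted p in edgeR).

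Within a lineage the spans of the 3 genes did not pass the test. In luminal progenitor-like nuclei Sox10 was at 97.3 and 107 CPM in fetal (class 9) and 92.2 and 102 CPM in adult replicates (classes 3 and 7), with overlap and a log2 fold change of 0.08 (edgeR adjusted p = 0.842). In basal-like nuclei it was at 66.7 and 71.2 CPM in fetal (class 4) and 75.5 and 62.3 CPM in adult replicates (classes 1 and 8), a log2 fold change of 0.04 (edgeR adjusted p = 0.935). Neither direction is firm, since counting the gene without its flanks, a setting added after the data were seen, turned the values to -0.35 and -0.14 (edgeR adjusted p = 0.295 and 0.785). Sox9 in basal-like nuclei stood at 75.2 and 50.4 CPM in fetal and 87.5 and 83.2 CPM in adult replicates, without overlap, and the log2 fold change of -0.52 was not called (edgeR adjusted p = 0.117). For Sox8 in the same nuclei the values were 31.2 and 34.2 against 53.2 and 37.8 CPM, a log2 fold change of -0.42 (SE 0.28, with 0.390 as the adjusted p in edgeR).

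In luminal progenitor-like nuclei Sox8 gave 0.32 (edgeR adjusted p = 0.490) and Sox9 -0.11 (edgeR adjusted p = 0.766). The stage effect of basal-like minus luminal progenitor-like nuclei was called for none of the 3 genes, at -0.74 for Sox8, -0.41 for Sox9 and -0.04 for Sox10 (edgeR adjusted p from 0.383 to 0.974). These 0 calls stand beside 4.22% of 17068 spans called higher in fetal and 5.04% higher in adult basal-like nuclei, 5.62% and 4.96% in luminal progenitor-like nuclei, and 3.13% called in either direction for the difference between the lineages. Stage and class cannot be told apart within a lineage, because the fetal and adult nuclei of each came from different classes. The markers of the lineages moved with stage in the same nuclei. In basal-like nuclei 8 of the 10 basal markers were higher in adult and none in fetal libraries, and 3 of the 7 luminal progenitor markers were higher in fetal and none in adult libraries. Within luminal progenitor-like nuclei 3 luminal progenitor markers were higher in adult and 1 in fetal libraries, and 4 basal markers were higher in fetal and 1 in adult libraries. Of the 5 luminal markers, 3 were higher in adult and none in fetal luminal progenitor-like nuclei. In basal-like nuclei 1 of them was higher in fetal and none in adult libraries. The part of all these markers in the results within the lineages was not tested.

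**Figure D2:**
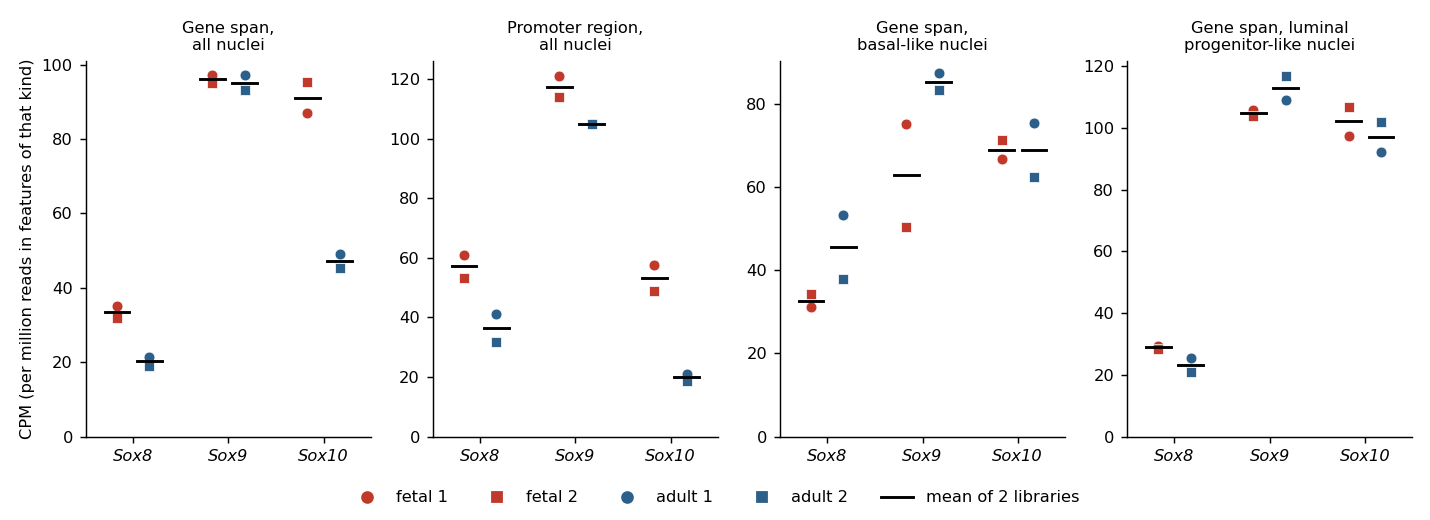
Accessibility of the 3 spans and promoter regions by library (CPM, y axis), over all nuclei and within basal-like and luminal progenitor-like nuclei, with 1 point per library and a line at the mean (n = 2 per stage). Over all nuclei the Sox10 span is at 87.0 and 95.3 CPM in fetal and 49.0 and 45.2 CPM in adult libraries, and within both lineages the Sox10 points of the stages overlap.

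The neighbourhoods of the genes were dense in distal regions. Within 100 kb of the start, by midpoint, lay 31 distal regions for Sox8, 28 for Sox9 and 42 for Sox10, against a median of 19 over 19204 promoter regions (percentiles 85.7, 79.0 and 97.5). Sox8 was the nearest protein-coding gene to only 6 of its 31 regions and Sox10 to 12 of its 42, while Sox9 was nearest to all 28. The same windows held 5, 8 and 1 promoter regions for Sox8, Sox10 and Sox9. A region around a gene is therefore not assigned to it. Positions below are in kb from the gene start, negative upstream. Of the 31, 28 and 42 distal regions, 26, 25 and 36 averaged 10 reads or more per library and were tested. Around Sox8, 13 were called higher in fetal libraries and none higher in adult ones. For Sox10 the counts were 10 and 2, and for Sox9 2 and 3, where 16.6% of the 122865 distal regions tested were called higher in fetal and 18.8% higher in adult libraries. Of the 13 Sox8 calls 6 had enough reads only through the fetal libraries, as did 1 of the 12 around Sox10, and 1 of the 5 around Sox9 only through the adult ones, so these counts and the medians that follow are descriptions. The median log2 fold change of the tested regions was 1.20 around Sox8, 0.48 around Sox10 and 0.04 around Sox9. Without classes 2 and 11 the counts were 8 and 0 of 23 for Sox8, 6 and 2 of 34 for Sox10 and 1 and 3 of 23 for Sox9, where 10.1% of 98171 regions were called higher in fetal and 12.5% higher in adult libraries. The Sox9 counts rest on single libraries, being 1 and 1 without adult replicate 1, 2 and 1 without fetal replicate 1 and 1 and 4 without fetal replicate 2. For Sox10 they fell to 7 and 1 without adult replicate 1, and for Sox8 to 9 and 0 without fetal replicate 2. Members of a neighbourhood share nuclei and can overlap in signal, so they are not independent of each other.

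The Sox9 span did not pass the test between the stages, while a single upstream region moved far. At -70.45 kb (chr11:112711258-112712257, with no gene there and Sox9 the nearest) the libraries stood at 122 and 135 CPM in fetal and 20.6 and 19.0 CPM in adult replicates 1 and 2. No value of one stage came near the other, and the log2 fold change was 2.70 (SE 0.19, with 1.44e-13 as the adjusted p in edgeR). The region was also higher in fetal nuclei within both lineages. Basal-like nuclei were at 174 and 155 CPM in fetal and 43.1 and 45.0 CPM in adult replicates, a log2 fold change of 1.88 (SE 0.27, with 9.36e-06 as the adjusted p in edgeR), and luminal progenitor-like nuclei at 153 and 187 against 57.9 and 60.0 CPM, a log2 fold change of 1.54 (edgeR adjusted p = 7.66e-06). In class CPM it ran from 71.7 in class 5, 57.0 in class 12, 51.0 in class 9 and 44.2 in class 4 through 12.7 to 17.98 in the adult basal-like and luminal progenitor-like classes to 1.06 in class 2. Class 11 and the fetal class 13 had no read there, which allows up to 0.657 and 3.14 at 3 reads.

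Other regions around Sox9 pointed the other way. At 29.4 kb (chr11:112811107-112812106) the fetal replicates were at 32.5 and 22.9 CPM and the adult ones at 74.4 and 53.3 CPM, a log2 fold change of -1.24 (SE 0.22, with 1.98e-05 as the adjusted p in edgeR). This region was most open in mature luminal-like class 2, at 39.0 class CPM, and class 14, at 36.4. It was not called within either lineage (log2 fold changes -0.57 and -0.84, edgeR adjusted p = 0.411 and 0.0742). Over all nuclei its call held in all 13 alternatives, at -1.59 to -0.92, among them that without classes 2 and 11. The region at -14.58 kb was not called over all nuclei, at 36.8 and 34.2 CPM in fetal and 40.9 and 43.0 CPM in adult replicates (-0.25, edgeR adjusted p = 0.370). Within lineages it was lower in fetal nuclei, at 62.0 and 56.5 against 90.0 and 128 CPM in luminal progenitor-like nuclei (log2 fold change -0.89, edgeR adjusted p = 0.0213) and at 30.6 and 18.9 against 60.7 and 62.1 CPM in basal-like nuclei (-1.44, edgeR adjusted p = 0.0114). Both calls rest on few libraries. In edgeR they ended without fetal replicate 2 (adjusted p = 0.195 and 0.281) or adult replicate 2 (0.265 and 0.0913), and the first also without fetal replicate 1 (0.0629). Without classes 2 and 11 the fit over all nuclei called the region lower in fetal libraries, at -0.84 (edgeR adjusted p = 0.0036). The remaining Sox9 regions with the most reads, at -49.47 kb (0.58) and 5.234 kb (-0.49), were not called (edgeR adjusted p = 0.135 and 0.283).

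Around Sox10, which had the most distal regions of the 3 genes, the region at -48.44 kb (chr15:79212428-79213427, Pick1 the nearest gene) was at 89.8 and 83.3 CPM in fetal and 39.6 and 32.3 CPM in adult replicates, a log2 fold change of 1.27 (edgeR adjusted p = 1.30e-06). It stood between 25.4 and 44.2 class CPM in classes 1, 3, 4, 5, 7, 9 and 12, at 13.5 in class 8 and at 0.744 in class 2. The stage call ended without classes 2 and 11 (0.42, edgeR adjusted p = 0.103), and neither lineage passed the test (0.58 in basal-like and 0.08 in luminal progenitor-like nuclei, edgeR adjusted p = 0.145 and 0.858).

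The region at -28.53 kb (chr15:79192517-79193516, Sox10 the nearest gene) was at 98.4 and 85.9 CPM in fetal and 23.0 and 25.4 CPM in adult replicates, a log2 fold change of 1.92 (edgeR adjusted p = 5.42e-10). Luminal progenitor-like nuclei were at 139 and 131 CPM in fetal and 59.3 and 65.5 CPM in adult replicates, a log2 fold change of 1.11 (edgeR adjusted p = 0.00128, and 0.0725 without adult replicate 1). Basal-like nuclei were at 109 and 94.6 against 43.1 and 58.5 CPM, a log2 fold change of 0.94 (edgeR adjusted p = 0.0281), a call that ended whichever library was left out (edgeR adjusted p from 0.0836 to 0.27).

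A pair of regions lies just beyond the 3′ end of Sox10. That at 11.35 kb (chr15:79152639-79153638) was at 46.2 and 36.3 CPM in fetal and 6.57 and 7.46 CPM in adult replicates, a log2 fold change of 2.53 (edgeR adjusted p = 1.10e-09). That at 12.68 kb, within Polr2f, a subunit gene of RNA polymerase II (chr15:79151309-79152308), was at 55.2 and 42.3 against 10.9 and 7.99 CPM, a log2 fold change of 2.36 (edgeR adjusted p = 1.47e-09). In luminal progenitor-like nuclei both were higher in fetal libraries, by 1.48 (edgeR adjusted p = 0.0103) and 1.57 (edgeR adjusted p = 0.004). Leaving out fetal replicate 1 (edgeR adjusted p = 0.122 and 0.0693) or adult replicate 1 (0.296 and 0.0779) ended both calls. In basal-like nuclei neither was called (1.53 and 0.70, edgeR adjusted p = 0.0553 and 0.265), and with class 12 added to class 4 and class 5 to class 9 both were (2.18 and 1.30, edgeR adjusted p = 6.87e-04 and 0.00445). Class 12 was the class with the highest level at both, at 23.9 and 43.4 class CPM.

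The intragenic region at 2.147 kb (chr15:79161843-79162842) differed in the opposite direction. Over all nuclei it was not called, at 23.1 and 28.4 CPM in fetal and 36.8 and 28.2 CPM in adult replicates (-0.31, edgeR adjusted p = 0.314). In luminal progenitor-like nuclei it was at 45.0 and 51.9 CPM in fetal and 108 and 102 CPM in adult replicates, with no overlap and a log2 fold change of -1.10 (SE 0.29, with 0.00556 as the adjusted p in edgeR, and 0.064 without adult replicate 1). In basal-like nuclei it was not called (-0.84, edgeR adjusted p = 0.168). Leaving out classes 2 and 11 gave -1.10 over the remaining nuclei (edgeR adjusted p = 5.95e-04). Class 7 was highest at 36.0 class CPM, followed by class 3 at 22.5, class 1 at 15.9 and class 9 at 15.0, and class 2 was at 1.70.

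Of the remaining called regions around Sox10, that at -37.8 kb was at 15.4 and 20.7 CPM in fetal and 2.19 and 3.14 CPM in adult replicates (log2 fold change 2.75, edgeR adjusted p = 3.85e-07). It was called in neither lineage (2.10 in basal-like and 1.45 in luminal progenitor-like nuclei, edgeR adjusted p = 0.103 and 0.168). Over all nuclei its call held in all 13 alternatives, at 2.22 to 2.94, among them that without classes 2 and 11. Weaker calls, at -78.79 kb (0.95), -11.99 kb (0.75) and 18.88 kb (-1.07), had edgeR adjusted p of 0.00509, 0.0333 and 0.0435, and each ended with DESeq2 (adjusted p = 0.0693, 0.188 and 0.245). In edgeR the first fell to 0.48 without adult replicate 2 (adjusted p = 0.241). The call at -11.99 kb ended in 8 of 13 alternatives and that at 18.88 kb in 7, where the last was at -0.17 without fetal replicate 2 (edgeR adjusted p = 0.801) and -0.05 without classes 2 and 11 (edgeR adjusted p = 0.962). The region at 32.94 kb was among those with the most reads and was not called (-0.07, edgeR adjusted p = 0.817).

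Around Sox8 the 13 called regions were all higher in fetal libraries, but 6 of them had enough reads only through those libraries. At -38.26 kb, within Lmf1, a lipase maturation gene (chr17:25608446-25609445), the fetal replicates were at 40.2 and 35.2 CPM and the adult ones at 5.29 and 5.76 CPM, a log2 fold change of 2.75 (edgeR adjusted p = 4.72e-10). Both lineages showed the same order, with 64.6 and 31.9 against 11.7 and 4.50 CPM in basal-like nuclei (2.63, edgeR adjusted p = 0.00271) and 62.0 and 62.6 against 10.0 and 21.4 CPM in luminal progenitor-like nuclei (1.98, edgeR adjusted p = 0.00111). The first call ended in edgeR without fetal replicate 1 (adjusted p = 0.0735) or adult replicate 2 (0.144), and the second without adult replicate 1 (0.0845). At -95.6 kb (chr17:25665784-25666783) the values were 15.8 and 20.8 against 2.37 and 1.70 CPM, a log2 fold change of 3.21 (edgeR adjusted p = 4.68e-08). Class 5 was highest there, at 11.7 class CPM, and class 1 had no read, which allows up to 1.04 at 3 reads. In basal-like and luminal progenitor-like nuclei it was at 3.05 and 2.00 (edgeR adjusted p = 0.0243 and 0.036). It met the minimum of 10 reads on average only because the fetal luminal progenitor-like sums are counted in it, so these values are a description and support no difference within a lineage. The first call ended in 4 of 8 alternatives and the second in 6, both of them in edgeR without fetal replicate 1 (adjusted p = 0.0624 and 0.0831), adult replicate 1 (0.156 and 0.123) or adult replicate 2 (0.0652 and 0.182). Without fetal replicate 2 the region had too few reads to be tested. Closer to the gene, the region at 14.43 kb was at 20.1 and 16.5 against 11.3 and 8.38 CPM (0.88, edgeR adjusted p = 0.0227). That call ended in 8 of 13 alternatives, among them DESeq2 (adjusted p = 0.157) and edgeR without fetal replicate 1 (0.0895) or adult replicate 2 (0.286). The regions at -71.48 kb (0.11) and 95.93 kb (0.45), also among those with the most reads, were not called over all nuclei (edgeR adjusted p = 0.799 and 0.209). In basal-like nuclei that at -71.48 kb was at 37.4 and 33.1 CPM in fetal and 15.7 and 6.30 CPM in adult replicates (1.82, edgeR adjusted p = 0.0497). That call ended in 7 of 9 alternatives, among them DESeq2 (adjusted p = 0.0769) and the omission of any 1 library in edgeR (adjusted p from 0.0838 to 0.459).

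**Figure D3:**
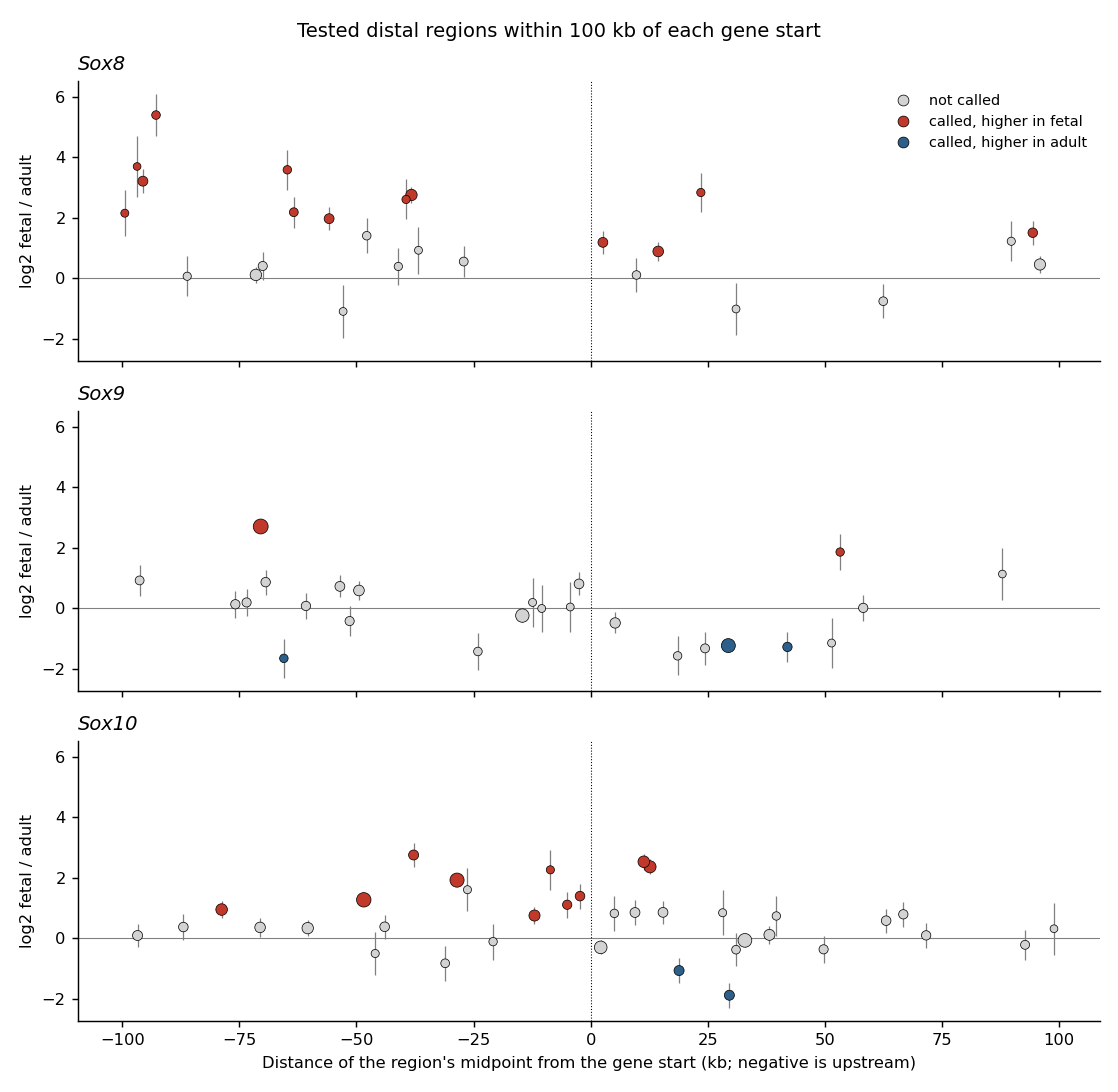
Log2 fold change of fetal over adult (y axis, bars are ± 1 SE) for the 26, 25 and 36 tested distal regions within 100 kb of Sox8, Sox9 and Sox10, by distance of the midpoint from the gene start in kb (x axis, negative upstream), with larger points for more reads and colour for regions called by edgeR. Around Sox8 the 13 called regions are all above 0, 6 of them with enough reads only through the fetal libraries. Around Sox9 the point at -70.45 kb stands at 2.70.

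Within the lineages fewer regions had enough reads to be tested, 9 around Sox8, 13 around Sox9 and 21 around Sox10. In basal-like nuclei 3, 1 and 1 of these were higher in fetal and 0, 1 and 1 higher in adult libraries, against 5.73% and 5.98% of all 39688 tested regions. In luminal progenitor-like nuclei the counts were 3, 1 and 4 higher in fetal and 0, 1 and 1 higher in adult libraries, against 8.59% and 8.35%. Among the fetal-higher ones in luminal progenitor-like nuclei, those at -95.6 kb from Sox8 and -70.58 kb from Sox10 had enough reads only through the fetal sums of that lineage, so no support is taken from these counts. With 1 library left out, 7 to 9, 12 to 14 and 18 to 24 regions had enough reads. Basal-like calls then numbered 0 or 1 around Sox8, 1 or 2 around Sox9 and 0 or 1 around Sox10, and 1 or 2, 1 or 2 and 1 to 4 in luminal progenitor-like nuclei. Basal-like calls were at 0 around Sox8 without fetal replicate 1 or adult replicate 2, and at 0 around Sox10 without fetal replicate 2 or adult replicate 2. Around Sox9 a single call was left without fetal replicate 2 or adult replicate 2 in basal-like nuclei and without fetal replicate 1 or adult replicate 2 in luminal progenitor-like nuclei. In the latter nuclei the Sox10 count was 2 without fetal replicate 1 and 1 without adult replicate 1, and that of Sox8 was 2 without fetal replicate 1 and 1 without each of the others. The median log2 fold changes in luminal progenitor-like nuclei were 0.66, -0.41 and 0.08 around Sox8, Sox9 and Sox10. The stage effect differed between the lineages in 1 of the 43 regions, against 3.92% of all tested regions, and the adjusted p of the other regions ran from 0.173 to 0.985 (edgeR). That region, 29.62 kb from the Sox10 start in Micall1 and 1700088E04Rik (chr15:79134367-79135366), was chosen after its values were seen. In edgeR its call ended without fetal replicate 1 (adjusted p = 0.0942), fetal replicate 2 (0.145) or adult replicate 1 (0.179), and without adult replicate 2 it had too few reads to be tested. Basal-like nuclei had 0 and 0 reads there in fetal and 20 and 29 reads in adult replicates, and luminal progenitor-like nuclei had 8 and 14 against 12 and 18 reads. It met the minimum mean of 10 reads only because the adult basal-like sums are counted in it, so its call is given as a description and supports no difference between the lineages.

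Co-accessibility scores, which the authors computed with Cicero over all nuclei, rise where a pair of regions tends to be open in the same nuclei. At a score of at least 0.1 the Sox10 promoter region had 31 partners, that of Sox8 7 and that of Sox9 none, where the median of 19199 promoter regions was 1 and 54.8% had any. The Sox10 count was above that of 99.4% of promoter regions and the Sox8 count above that of 86.3%. The strongest Sox10 partners were the regions at -48.44 kb (0.547), -28.53 kb (0.502) and 11.35 kb (0.373), and the highest of these scores exceeded the highest of 99.7% of promoter regions. All 3 are among the distal regions described above. The strongest Sox8 partners were the second promoter region at -6.729 kb (0.239), a promoter region of Antkmt at -221.5 kb (0.157) and the distal region at 14.43 kb (0.146). For Sox9 the highest scores were 0.0713 at 382.9 kb, 0.0657 at 409.9 kb and 0.0633 at -70.45 kb, under the median highest score of 0.114. Since the scores were computed over both stages and all classes together, they carry no spread over libraries and regions open in the same classes score high together. The authors' deposited gene accessibility score was above 0 in 20.1% of 7846 columns for Sox10, 9.99% for Sox9 and 8.04% for Sox8 (median of 11327 genes 6.79%), and its columns name no sample.

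**Figure D4:**
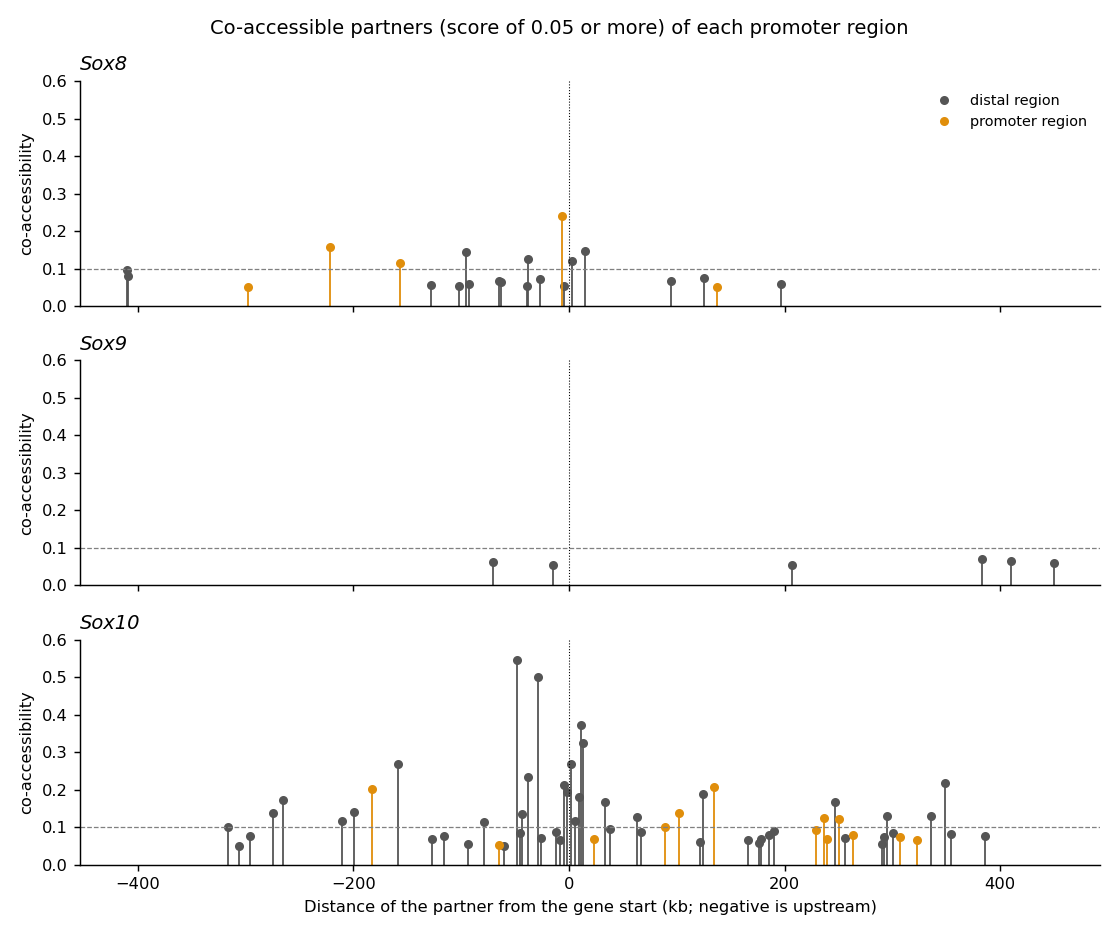
Authors' co-accessibility score (y axis) between the promoter region of each gene and its partners with a score of at least 0.05, by distance from the gene start in kb (x axis, negative upstream), with a dashed line at 0.1. Sox10 has 31 partners at or above the line with a highest score of 0.547, and no Sox9 partner exceeds 0.0713.

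Motif scores are chromVAR deviation scores, in which a value above 0 marks a nucleus with more accessibility over the regions that hold a motif than the average nucleus. The deposited table had a column for each of the 3 members and for 9 other Sox factors. Library means of the Sox9 column were 1.06 and 1.21 in fetal and -0.645 and -0.530 in adult replicates 1 and 2, a difference of 1.72 (SE 0.0702, limma adjusted p = 3.10e-05). Sox8 stood at 0.607 and 0.757 against -0.394 and -0.317, a difference of 1.04 (SE 0.0665, limma adjusted p = 1.19e-04), and Sox10 at 0.406 and 0.463 against -0.200 and -0.234, a difference of 0.652 (SE 0.0473, limma adjusted p = 1.63e-04). No stage overlapped the other. All 12 Sox columns were called higher in fetal libraries, where 32.3% of the 427 columns were called higher in fetal and 35.6% higher in adult libraries. Without classes 2 and 11 the 3 differences were 1.17, 0.586 and 0.465, and all 12 columns were called again, beside 22.5% of columns called higher in fetal and 30.9% higher in adult libraries. The fetal-only classes 5 and 12, which are among the highest in these scores, stayed in that fit, so the mix of classes still differed. The columns are not separate measurements, since SOX factors bind similar letters. Over the 7846 nuclei the Sox8 scores correlated with those of Sox11 at r = 0.897, of Sox10 at 0.716 and of Sox9 at 0.612, and Sox9 with Sox10 at 0.458, as a description across nuclei that share libraries and depth.

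Within the lineages the fetal scores were higher too. Sox9 in luminal progenitor-like nuclei was at 0.880 and 1.07 in fetal and -0.0166 and 0.118 in adult replicates, a difference of 0.922 (SE 0.0792, limma adjusted p = 1.65e-04). In basal-like nuclei it was at 1.21 and 1.04 against 0.209 and 0.285, a difference of 0.882 (SE 0.0771, limma adjusted p = 5.93e-23). That small p rests on a spread shared almost wholly over motifs (251 prior degrees of freedom in limma, against 4.83 for luminal progenitor-like nuclei), so its size is not comparable between the lineages. Sox8 and Sox10 were called in luminal progenitor-like nuclei at differences of 0.462 and 0.388 (limma adjusted p = 0.0012 and 0.00165). In basal-like nuclei Sox8 differed by 0.291 (limma adjusted p = 5.95e-04, and 0.0877 without adult replicate 1) and Sox10 by 0.183 (limma adjusted p = 0.0364). The Sox10 call ended with medians over nuclei in place of means (0.166) and in limma without fetal replicate 1 (0.19), adult replicate 1 (0.176) or adult replicate 2 (0.24). Of the 12 Sox columns 12 were called higher in fetal luminal progenitor-like and 11 in fetal basal-like nuclei, Sox6 being the exception (0.103, limma adjusted p = 0.276). Without adult replicate 1 these counts were 9 and 6, and without adult replicate 2 they were 9 in both lineages. Over all columns 29.0% were higher in fetal and 35.1% in adult luminal progenitor-like nuclei, and 19.0% and 31.4% in basal-like nuclei.

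By class, the 3 columns had the same 4 fetal classes at the top. Sox9 was at 1.83 ± 0.0389 in class 12, 1.72 ± 0.240 in class 5, 1.13 ± 0.120 in class 4 and 0.973 ± 0.132 in class 9 (SD, n = 2). The highest adult class for Sox9 was basal-like class 8 at 0.438 ± 0.0885, below every fetal value of those 4, and class 2 was lowest at -1.47 ± 0.0311 (SD, n = 2). Sox10 ran from 0.791 ± 0.0642 in class 5 to -0.538 ± 0.0379 in class 2, and Sox8 from 1.14 ± 0.180 in class 5 to -1.09 ± 0.0184 in class 2 (SD, n = 2). Class 7, which had the highest mean Sox9 and Sox10 span levels, had motif scores near 0, at -0.0491 ± 0.111 for Sox9 and -0.0394 ± 0.104 for Sox10 (SD, n = 2). Over the 26 class and library sums, span level and motif score correlated at r = 0.758 for Sox10, 0.657 for Sox8 and 0.244 for Sox9. Within the 17 adult sums r was 0.809, 0.625 and 0.299, and within the 9 fetal sums 0.385, 0.438 and -0.116. These are descriptions, because sums of a library share its depth.

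**Figure D5:**
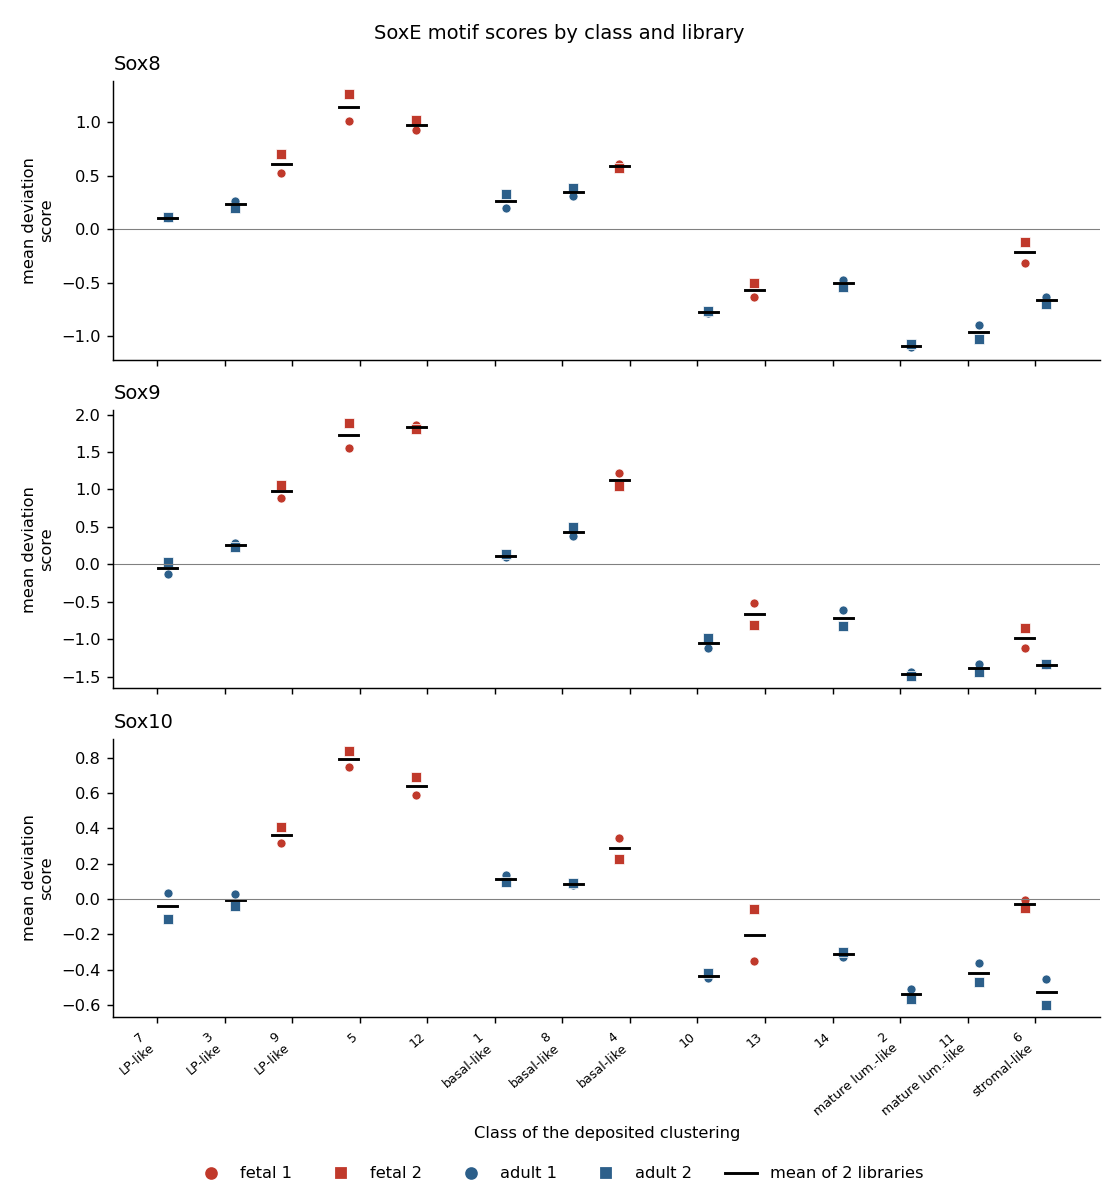
Mean chromVAR deviation score of the Sox8, Sox9 and Sox10 motif columns (y axis) by class of the deposited clustering (x axis), with 1 point per library and a line at the mean of 2 libraries (n = 2). Fetal classes 5, 12, 9 and 4 lie above every adult class in all 3 columns, and class 2 is lowest, at -1.47 for Sox9.

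Among the 16 other Sox genes, 10 spans were higher in fetal libraries and none higher in adult ones, beside 11.3% and 10.9% of all spans, and their median log2 fold change was 0.53 against 0.01 for all genes. Sox11, a SoxC gene of progenitor cells, differed most, at 77.6 and 76.3 CPM in fetal and 9.48 and 11.5 CPM in adult replicates, a log2 fold change of 2.87 (SE 0.15, with 8.52e-07 as the adjusted p in edgeR). Sox14 (1.51), Sox1 (1.20) and Sox21 (1.07), genes of the neural SoxB group, followed, and Sox13 (0.73), Sox6 (0.59), Sox12 (0.55), Sox15 (0.55), Sox2 (0.51) and Sox5 (0.46) were also called. Without classes 2 and 11 there were 8, against 6.68% of spans called higher in fetal libraries, with Sox2 and Sox5 no longer called. In basal-like nuclei 3 were higher in fetal libraries, Sox11 (2.46), Sox13 (0.87) and Sox6 (0.67), and in luminal progenitor-like nuclei 4, Sox11 (2.44), Sox1 (1.70), Sox21 (1.05) and Sox12 (0.78), beside 4.22% and 5.62% of all spans. The basal-like count became 2 without fetal replicate 1 or adult replicate 2 and 1 without fetal replicate 2. In edgeR the Sox6 call ended without fetal replicate 1 (adjusted p = 0.0812), fetal replicate 2 (0.13) or adult replicate 1 (0.0646), and that of Sox13 without fetal replicate 2 (0.228) or adult replicate 2 (0.111).

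Of 24 genes known to act with or below SoxE factors, 11 were higher in fetal and 2 in adult libraries, beside 11.3% and 10.9% of all spans, with a median log2 fold change of 0.39. Without fetal replicate 2 the first count was 7. Sox5 and Sox6, the partners of Sox9 in cartilage, are in this list and in the one before. The cartilage genes Col2a1 (1.14), Col9a1 (1.11) and Acan (0.96), all classical Sox9 targets, were higher in fetal libraries. Col2a1 stood at 58.0 and 67.1 CPM in fetal and 30.1 and 27.0 CPM in adult replicates. The signalling and neural crest genes Ednrb (1.03), Lef1 (0.94), Pax3 (0.71), Etv5 (0.65) and Fgfr2 (0.30) and the cartilage-derived gene Mia (0.38) were also higher in fetal libraries. The glial genes Mbp (-1.06) and S100b (-1.14) were higher in adult libraries, and the remaining 11 genes, among them the melanocyte and neural crest genes Mitf, Dct, Erbb3, Ret and Foxd3, were not called. The calls of Mia and Fgfr2 ended in 8 and 5 of 15 alternatives, as did those of Sox2 and Sox15 above in 7 and 6. Without classes 2 and 11, 8 were higher in fetal and 1, Mbp, in adult libraries, beside 6.68% and 7.03% of spans. Sox5, Ednrb and Mia were then no longer called, and S100b stood at -0.01 (edgeR adjusted p = 0.983).

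Within basal-like nuclei 5 of the 24 were higher in fetal libraries (Acan 1.30, Pax3 0.91, Lef1 0.84, Col2a1 0.74 and Sox6 0.67) and 2 in adult ones (Mbp -0.79 and Egr2 -0.62), beside 4.22% and 5.04% of all spans. Without fetal replicate 1 these counts were 0 and 1, without fetal replicate 2 both were 0, without adult replicate 1 they were 3 and 2, and without adult replicate 2 they were 2 and 1. The Egr2 call ended in 7 of 11 alternatives, that of Col2a1 in 5 of 11, that of Acan in 5 of 10 and those of Pax3, Lef1 and Sox6 in 3 of 11 each. In luminal progenitor-like nuclei 3 were higher in fetal libraries, Fgfr2 (1.24), Lef1 (1.23) and Col2a1 (1.01), and Mbp (-0.90) in adult ones, beside 5.62% and 4.96% of all spans. Without fetal replicate 2 the first count was 1, and without adult replicate 2 it was 5. The stage effect differed between the lineages for 1 of the 24, beside 3.13% of all spans. This was Fgfr2, an FGF receptor gene, which differed by -1.05 (edgeR adjusted p = 0.00131, and 0.125 without fetal replicate 2).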

How the data were processed

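Nuclei of 2 fetal and 2 adult libraries were measured by single-nucleus ATAC-seq. The authors deposited aligned reads with barcodes, read counts per nucleus, a class per nucleus, promoter and distal regions, Cicero co-accessibility and gene accessibility scores, and chromVAR deviation scores per motif. Bowtie2, MACS2, bedtools and build mm10 are named per the submitters' processing notes, without versions, and their settings are not given in the sources used here. Per the labels' protocols cells had been frozen and nuclei were tagged by barcode pairs, so nuclei can share a pair. Doublets were not called.

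Reads of the listed nuclei were counted per library in each gene span, promoter region and distal region touched by 1 base or more, with sums by library, class and lineage. Intervals and floors cover counting error only. Features averaging 10 reads or more per library (per sum, for lineages) were tested with edgeR 4.0.16 (TMM factors, quasi-likelihood test) and motif scores with limma 3.58.1 on library means, in R 4.3.3, with Benjamini-Hochberg adjustment over all features and a call at an adjusted p below 0.05. The SE of an edgeR fold change was derived from its F statistic. Lineage contrasts of counts came from 1 fit over 8 sums, a basal-like and a luminal progenitor-like sum from each of the 4 libraries. The sums shared 1 estimate of the spread. The fit had no term for the library, so the sums of a library were treated as independent and their pairing was not used. DESeq2 1.42.0 was an alternative. Counting used Python 3.11.15 with pandas 2.3.3 and numpy 2.4.6, correlations scipy 1.17.1 and plots matplotlib 3.10.9. The fitting code was tested on simulated data.

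A marker was raised in a class where log2(CPM + 2) exceeded the other classes' mean by 0.5 or more. Named were the 3 genes whatever their values, per gene the 5 distal regions within 100 kb with the most reads, any called region there averaging 50 reads or more per library, the 3 highest-scoring partners, and the 5 genes most alike in log2(CPM + 2) over class and library sums of at least 50 nuclei, leaving out genes within 1 Mb. The members and lists were chosen with earlier results of these data known. Alternatives were another tool, scaling, filter, depth, read assignment, flank and block, and leaving out each library. Those without classes 2 and 11, and those without a flank within lineages, were chosen after seeing the data. Values of some listed genes are not reported here.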

Additional observations from a re-analysis of the deposited data

Results flagged for a closer look

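The distal region 29.62 kb from the Sox10 start differed in its stage effect between the lineages, by -7.72 on the log2 scale for basal-like minus luminal progenitor-like nuclei (SE 1.99, edgeR adjusted p = 0.0191). The fitted size depends on the prior count, because both fetal basal-like sums had 0 reads, and it is no bound. The call ended with classes 12 and 5 added (-2.95, edgeR adjusted p = 0.116) and in edgeR without fetal replicate 1 (adjusted p = 0.0942), fetal replicate 2 (0.145) or adult replicate 1 (0.179).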

How the results depend on the processing

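Called features numbered 4174 gene spans, 3992 promoter regions and 43423 distal regions between the stages. DESeq2 gave 2622 promoter and 24872 distal calls, a minimum of 50 reads gave 15301 distal calls, and leaving out classes 2 and 11 gave 2526, 2433 and 22105. Leaving out 1 library gave 1812 to 4463 spans and 2514 to 3057 promoter regions. For spans, 1581 basal-like and 1805 luminal progenitor-like calls became 1040 and 1156 with DESeq2 and 182 to 1457 and 519 to 1642 without 1 library, and the 535 differences between lineages became 810 with classes 12 and 5 added and 37 to 614 without 1 library. For distal regions, the 4647, 6723 and 1555 calls in the same 3 contrasts became 686, 908 and 284 at a minimum of 50 reads, 8511, 10722 and 2433 with classes 12 and 5 added, and 1154 to 2611, 2325 to 4435 and 89 to 414 without 1 library, and the last became 955 with no minimum. Motif calls in luminal progenitor-like nuclei went from 274 to between 131 and 272 without 1 library. Where 1 library was left out, the lone library of its stage was assumed to vary like the others. Apart from the construction of each alternative (fewer or other nuclei, features or libraries), the cause was not tested.

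The labels do not say that equal replicate numbers share a litter or day, and same-numbered libraries deviated together at r = 0.240 for spans, 0.0557 for promoter and 0.0368 for distal regions. With the replicate number as a block 6421 spans were called between the stages, and with the library as a block 1037 spans differed between the lineages. The ratio of class 7 to class 2 became 5.12 for Sox8 without flanks and 1.21 for Sox9 as a thinned share. Within 50 and 500 kb lay 15 and 100 distal regions for Sox8, 12 and 139 for Sox9 and 27 and 153 for Sox10. At scores of at least 0.05 the partners numbered 22, 6 and 62, and at 0.25 Sox8 had 0 and Sox10 6.

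Directions that turned all belonged to values that were not called. The Sox9 span between the stages (0.0133) became -0.00334 with no minimum, -0.0200 in deeper nuclei, -0.0389 without classes 2 and 11 and -0.0364 to 0.042 without 1 library. The Sox10 span became -0.137 in basal-like and -0.345 in luminal progenitor-like nuclei without flanks, and -0.116 to 0.165 in basal-like nuclei without 1 library. The difference between lineages became 0.039 for Sox9 and 0.219 for Sox10 with classes 12 and 5 added, and for Sox10 0.208 without flanks and -0.266 to 0.158 without 1 library. The region at -71.48 kb from Sox8 became -0.0447 with no minimum, -0.0361 in deeper nuclei and -0.294 to 0.451 without 1 library, and -0.49 to 0.948 in luminal progenitor-like nuclei. The region at -49.47 kb from Sox9 became -0.288 without classes 2 and 11, that at 32.94 kb from Sox10 ranged from -0.481 to 0.187 and that at 29.62 kb, in luminal progenitor-like nuclei, from -0.663 to 0.00384 without 1 library. Of 483 values for named distal regions 398 kept direction and call, as did 129 of 144 for spans, 55 of 60 for motifs and 35 of 39 for promoter regions.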
